A study of Mus musculus with 6 samples.

Results

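The genes examined were 10 members of the insulin-like growth factor 1 (IGF1) axis, in bone marrow–derived macrophages (BMDMs) with and without the mitochondrial fission protein DRP1: the ligand *Igf1*, the receptors *Igf1r* and *Igf2r*, the binding proteins *Igfbp3*, *Igfbp4*, *Igfbp5*, *Igfbp6* and *Igfbp7*, and the receptor substrates *Irs1* and *Irs2*. They were chosen by name out of 36137 genes with transcripts in the data, and with earlier results of this comparison already known, so their differences between genotypes are given as a description with no p-value. The 3 WT libraries came from *LysM*-Cre+/- *Drp1*+/+ mice and the 3 *Drp1* KO libraries from *LysM*-Cre+/- *Drp1* fl/fl mice, so both groups carried the Cre, which the lysozyme M promoter drives in myeloid cells. The mice were 8 to 12 weeks old, and marrow of 2 mice per genotype was pooled. The sources used here give 3 per group for the RNA-seq but do not say whether each library came from its own pool, so the spread between libraries may be technical. All cells were differentiated for 7 days and then held for 8 hours in hypoxia with serum starvation (HSS), a culture model of ischemia, at 2.1% oxygen by the sample labels. No library of BMDMs outside HSS was analysed here.

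IGF1 is a secreted peptide related to insulin, and macrophages are a known source of it in regenerating muscle. It binds the receptor tyrosine kinase IGF1R, which phosphorylates the docking proteins IRS1 and IRS2 and through them activates PI3K and AKT. IGF2R, which is also the cation-independent receptor for mannose phosphate, takes IGF2 to lysosomes for degradation and sorts lysosomal enzymes. The IGF binding proteins hold the ligands outside the cell, and proteases release the ligands by cleaving them.

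Each library held 23389488 to 32231206 estimated counts. Levels are given as CPM, the counts scaled to library size after TMM normalization, and a level of 3 counts in a library, taken as the floor, was 0.0916 to 0.136 CPM. A gene was called when its adjusted p over all 18506 genes tested was under 0.05 in edgeR's quasi-likelihood test. The first principal component (47.5% of the variance) separated the genotypes, and the second (30.0%) set libraries 1 of both groups apart from the others. *Dnm1l*, the gene that encodes DRP1, had 72.7, 69.9 and 75.1 CPM in WT libraries and 58.7, 60.7 and 66.3 in *Drp1* KO libraries. Its groups did not overlap, but it was not called (log2 fold change -0.23, SE 0.092, adjusted p = 0.248, and 0.0739 to 0.519 over the other settings), and whole-gene counts do not resolve the deleted exons. Of 12 macrophage markers all were detected in every group, with a summed level of 20977 to 23513 CPM in WT against 20882 to 23580 CPM in *Drp1* KO.

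The ligand, both receptors and 1 binding protein were lower in *Drp1* KO BMDMs than in WT in every library. *Igf1* had a log2 fold change of -0.52, *Igf2r* -0.80, *Igfbp4* -0.76 and *Igf1r* -0.48. The first 3 of these were called and *Igf1r* was not. *Irs2* overlapped between the groups. The other 5 genes lay near the floor, where no direction could be read. In bulk RNA, fewer cells of a type and less RNA per cell cannot be told apart. Of the 10 genes, 9 passed the filter on low counts, 3 were called lower and 0 higher, where 3.36% of all genes tested were called, 1.06% as lower and 2.29% as higher. In 4 genes the groups did not overlap, all lower in *Drp1* KO, where 10.3% of all genes were lower without overlap. By the study's own criteria, a minimum fold with an unadjusted p under 0.05, here applied to the edgeR test and not to DESeq2, 4 were lower and 0 higher, where 5.48% of all genes were lower and 7.19% higher. Since the genes were named with this contrast known, nothing is read from these shares. The median log2 fold change of the 9 genes was -0.48, and that of all genes tested was 0.005.

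**Figure D1:**
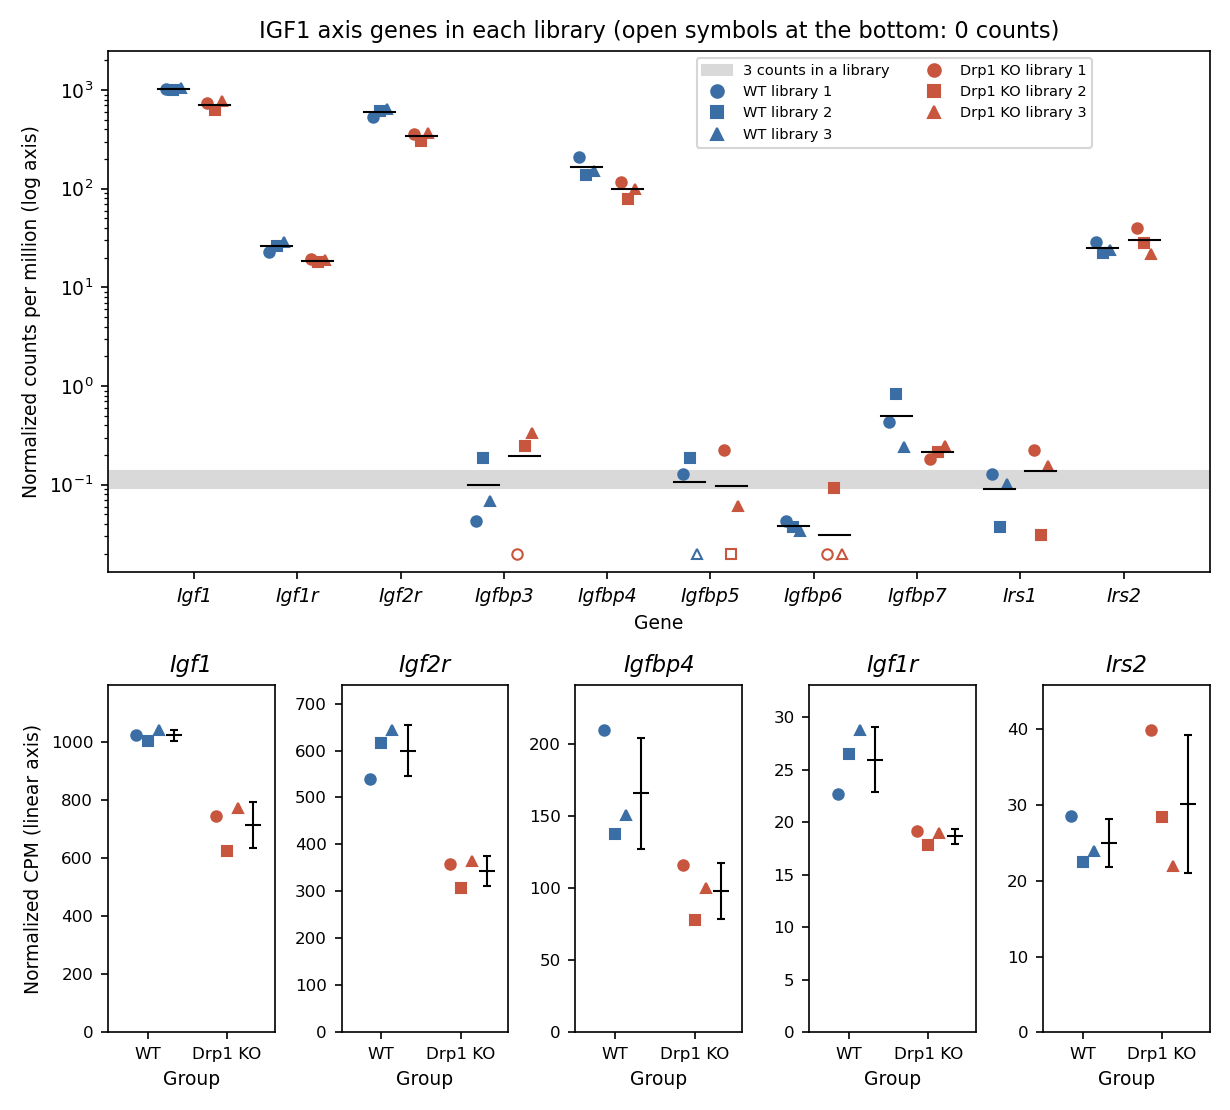
Normalized CPM of the 10 genes in each of the 6 libraries, on a log axis above (the grey band is 3 counts in a library, black lines are group means) and on linear axes below for the 5 genes above 10 CPM (black marks are mean and SD, n = 3). *Igf1*, *Igf2r*, *Igfbp4* and *Igf1r* had every *Drp1* KO library under every WT library, and *Igfbp3*, *Igfbp5*, *Igfbp6* and *Irs1* lay around the grey band.

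*Igf1* (ENSMUSG00000020053; GRCm39 chromosome 10, 87693642 to 87772904, plus strand) was the most abundant of the 10 genes. It had 1024, 1003 and 1041 CPM in the WT libraries and 744, 623 and 771 CPM in the *Drp1* KO libraries. The WT libraries lay close together, and the lowest of them was well above the highest *Drp1* KO library. Means were 1022 ± 18.9 CPM in WT against 713 ± 78.9 CPM in *Drp1* KO (SD, n = 3 each), and *Igf1* fell by 30.3% (log2 fold change -0.52, SE 0.106). Leaving out *Drp1* KO library 2 (-0.43), WT library 2 (-0.55) or WT library 3 (-0.52) ended the call, as did length-scaled counts (-0.65), all with the same direction. The smallest gap between the groups was that of WT library 2 and *Drp1* KO library 3.

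The *Igf1* transcripts differ at both ends. In rodents a 52-base exon near the end of the coding sequence (GRCm39 chr10:87751160-87751211, plus strand) is kept in transcripts that encode the Eb form of the E-peptide, a tail cleaved from the IGF1 precursor, and skipped in those that encode the Ea form. The mature hormone is the same in both. The junctions that tell them apart are shown as spliced sequence, 5′ to 3′, with 20 bases of the exons on either side in lower case and the exon in capitals.
Igf1-203, exon kept: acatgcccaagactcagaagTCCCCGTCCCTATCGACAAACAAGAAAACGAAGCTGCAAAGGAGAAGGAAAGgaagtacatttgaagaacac
Igf1-202, exon skipped: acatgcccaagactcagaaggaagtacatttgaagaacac

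Igf1-201 (0.592% to 1.03% of the counts) was counted with the 52-base exon because it has an exon with the same start. It ends at 87751756, before the next exon, so it lacks the printed junction. Transcripts with the 52-base exon, counted so, took 24.4%, 24.0% and 23.3% of the *Igf1* counts in WT libraries and 24.8%, 21.7% and 19.2% in *Drp1* KO libraries. The groups overlapped, and the *Drp1* KO libraries spread more widely (23.9 ± 0.578% against 21.9 ± 2.80%). As a share of TPM the same transcripts took 49.5%, 50.1% and 51.0% in WT and 48.0%, 46.3% and 46.9% in *Drp1* KO, and there the groups did not overlap (50.2 ± 0.784% against 47.1 ± 0.875%). TPM also divides by transcript length, so the short models weigh more on that scale. Igf1-202, the canonical transcript, took 55.3%, 58.8% and 61.2% in WT and 53.2%, 63.5% and 68.9% in *Drp1* KO. Libraries 1 had the lowest share of Igf1-202 in both groups. Of the TPM, Igf1-202 took only 13.0% to 16.9% in WT and 12.5% to 22.9% in *Drp1* KO, behind Igf1-206 (39.8% to 42.1% and 32.2% to 40.2%) and Igf1-205 (29.1% to 35.2% and 28.8% to 38.4%). Of the counts, Igf1-205 took 13.0% to 18.2% in WT and 10.9% to 21.0% in *Drp1* KO, and Igf1-206 took 14.3% to 16.7% in WT and 10.2% to 16.5% in *Drp1* KO. The minor transcript Igf1-207, which starts farthest upstream and was singled out after its values were seen, took 2.12%, 2.34% and 2.42% in WT and 1.03%, 1.011% and 0.952% in *Drp1* KO, with no overlap between the groups (2.25% to 2.91% and 1.07% to 1.395% of the TPM). All these shares depend on the transcript models in the authors' index. There, Igf1-202 (7052 bases) alone carried the long 3′ end of the gene, which the newer annotation gives to other transcripts as well (Igf1-203 had 1673 bases in the files and 7125 in the annotation). Between Igf1-205 and Igf1-206, which were both short in the files (798 and 651 bases) and differ in the 52-base exon and in their starts, the form with the exon took 47.9%, 49.3% and 52.3% of their counts in WT and 44.1%, 42.7% and 48.2% in *Drp1* KO. The ranges overlapped by the margin between WT library 1 and *Drp1* KO library 3, and within each replicate number the *Drp1* KO share was the lower. As a share of TPM the form with the exon took 54.4%, 55.7% and 58.5% in WT and 51.1%, 49.2% and 54.7% in *Drp1* KO. Transcripts that start from the upstream of the alternative leader exons took 68.6 ± 3.86% of the counts in WT and 71.7 ± 8.62% in *Drp1* KO, less than the spread apart. As a share of TPM they took 26.4 ± 3.71% and 30.2 ± 7.99%, so which leader was in the majority turned with the scale.

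**Figure D2:**
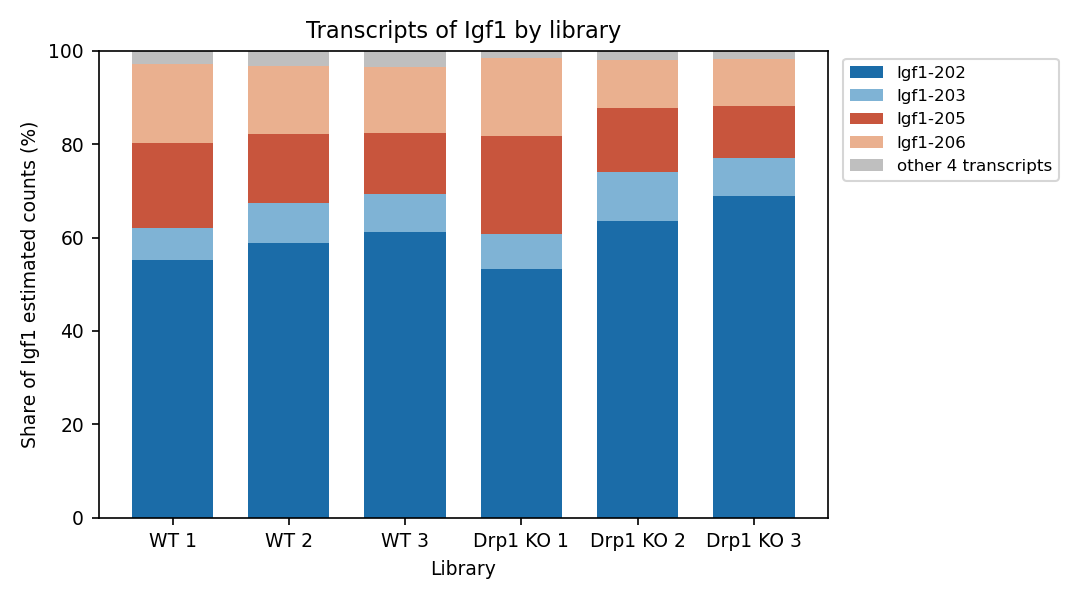
Share of *Igf1* estimated counts (%) on each transcript, stacked to 100% for each of the 6 libraries. Igf1-202 took the largest share of the counts in every library, from 53.2% in *Drp1* KO library 1 to 68.9% in *Drp1* KO library 3, with overlapping groups (on TPM, not drawn, its share was 12.5% to 22.9%).

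*Igf2r* (ENSMUSG00000023830; chromosome 17, 12901293 to 12988614, minus strand) had, with *Igfbp4*, one of the 2 largest differences among the 5 genes above 10 CPM, and which of the pair was larger turned with the setting. Its levels were 539, 616 and 643 CPM in WT libraries and 359, 308 and 365 CPM in *Drp1* KO libraries. Every *Drp1* KO library was far below every WT library. Means were 599 ± 54.2 and 344 ± 31.5 CPM (SD, n = 3 each), and *Igf2r* fell by 42.6% (log2 fold change -0.80, SE 0.110). It was the only one of the 10 genes called in each of the 13 other settings, with log2 fold changes of -0.87 to -0.72. One transcript, Igf2r-201 (8887 bases), took 99.8% of the counts in each library and 84.0% to 89.1% of the TPM.

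*Igf1r* (ENSMUSG00000005533; chromosome 7, 67601518 to 67883416, plus strand), the receptor that signals for IGF1, was present at a low level. It had 22.6, 26.5 and 28.8 CPM in WT libraries and 19.2, 17.9 and 18.9 CPM in *Drp1* KO libraries. The *Drp1* KO libraries lay close together under the WT libraries, with a mean of 18.6 ± 0.685 CPM against 26.0 ± 3.09 CPM (SD, n = 3 each). The log2 fold change was -0.48 (SE 0.119), and it was not called. It was called with the replicate number as a block (log2 fold change -0.48 again), without WT library 1, with DESeq2, with edgeR's filterByExpr and when every gene with a count was kept. With the replicate block 4 of the 9 genes tested were called, all lower, where 5.22% of all genes were called lower and 6.73% higher. Igf1r-201 took at least 94.3% of the counts in each library and 53.4% to 84.3% of the TPM.

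*Insr* encodes the insulin receptor, which can pair with IGF1R in hybrid receptors. It was not called, with 111 ± 8.94 CPM in WT against 127 ± 0.204 CPM in *Drp1* KO, and a log2 fold change of 0.19 (SE 0.092, adjusted p = 0.340, and 0.0596 to 0.633 over the other settings). Over those settings the log2 fold change ran from 0.13 to 0.50, and the highest was with length-scaled counts. On TPM *Insr* had 38.9 ± 5.45 in WT and 51.9 ± 7.00 in *Drp1* KO. Within each library the ratio of *Insr* to *Igf1r* estimated counts was 4.51, 4.18 and 4.18 in WT and 6.61, 7.10 and 6.69 in *Drp1* KO. On the scale of TPM, which also divides by transcript length, the ratio was 7.46, 8.44 and 11.1 in WT and 16.2, 18.1 and 22.3 in *Drp1* KO. On both scales every *Drp1* KO library had the higher ratio. The ratio of *Igf2r* to *Igf1r* estimated counts was 23.8, 23.3 and 22.4 in WT and 18.8, 17.2 and 19.3 in *Drp1* KO. It did not overlap between groups on counts, while on TPM it did (19.4, 24.1 and 29.1 in WT, 17.9, 19.1 and 22.6 in *Drp1* KO), though it was lower in *Drp1* KO within each replicate number. These ratios were formed after the values were seen and have no test.

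**Figure D3:**
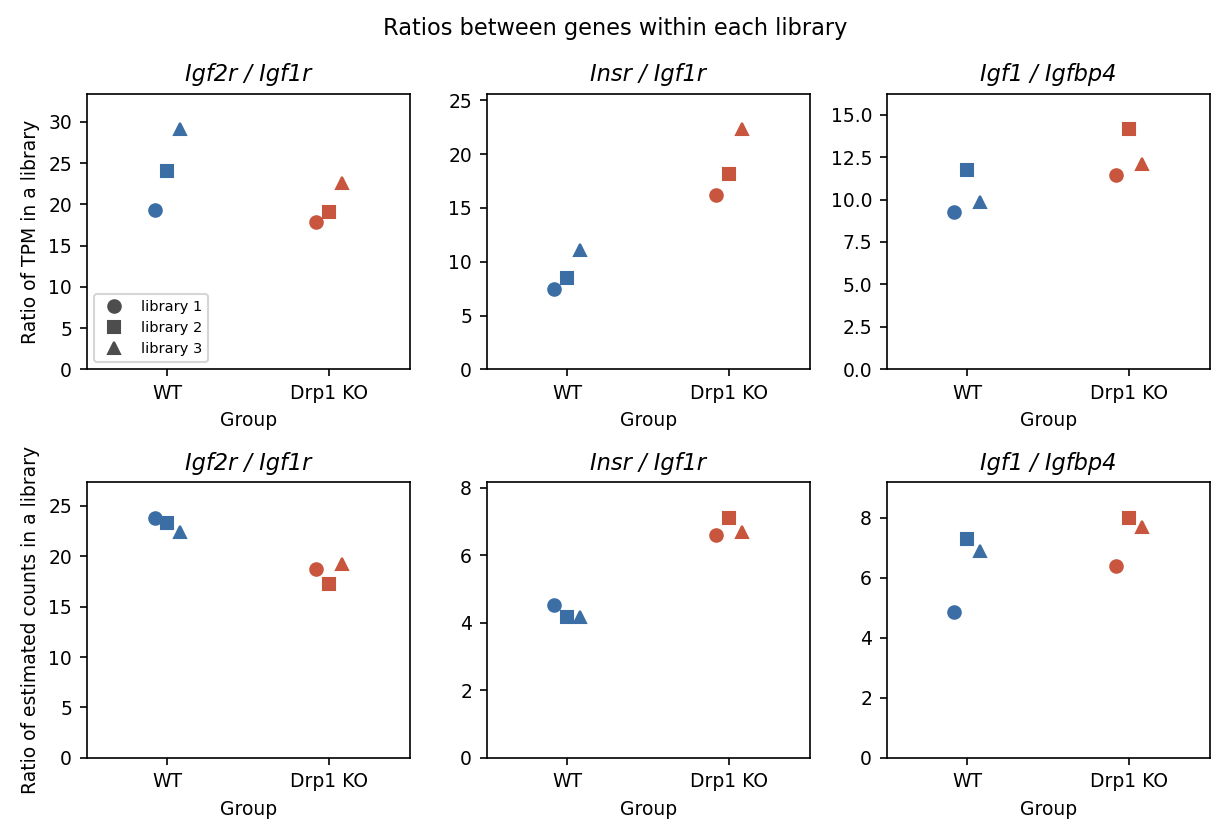
Ratios between pairs of genes within each library, on TPM above and on estimated counts below, with axes from 0 and 1 symbol per library. The *Insr* to *Igf1r* ratio was higher in each *Drp1* KO library on both scales, and the *Igf1* to *Igfbp4* ratio overlapped on both.

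*Igfbp4* (ENSMUSG00000017493; chromosome 11, 98932064 to 98945218, plus strand), which binds IGF1 and is cleaved by the protease PAPP-A, was the one binding protein well above the floor. Its levels were 209.9, 137 and 151 CPM in WT libraries and 116, 77.9 and 100.2 CPM in *Drp1* KO libraries. Library 1 was the highest in both groups, and the groups did not overlap. Means were 166 ± 38.5 and 98.1 ± 19.3 CPM (SD, n = 3 each), with a log2 fold change of -0.76 (SE 0.179). *Igfbp4* was called at the edge of the threshold. The call was lost with median-of-ratios size factors (-0.77), with length-scaled counts (-0.93), and without WT library 1 (-0.56), 2 (-0.90) or 3 (-0.84) or *Drp1* KO library 2 (-0.61) or 3 (-0.77). With the replicate block the value was -0.75 and the call was kept. Igfbp4-201, the canonical transcript, took 86.8% to 89.5% of the counts in WT and 89.4% to 95.3% in *Drp1* KO, but only 40.8% to 50.2% and 46.3% to 61.4% of the TPM, where short transcripts weigh more. The ratio of *Igf1* to *Igfbp4* TPM was 9.29, 11.7 and 9.87 in WT and 11.4, 14.1 and 12.1 in *Drp1* KO. The groups overlapped, and within each replicate number the ratio was higher in *Drp1* KO, on estimated counts as well (4.88, 7.30 and 6.89 in WT, 6.39, 8.00 and 7.69 in *Drp1* KO).

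The other binding proteins were barely detected. *Igfbp7* (ENSMUSG00000036256; chromosome 5, 77493130 to 77555931, minus strand) had 10, 22 and 7 counts in WT and 4, 7 and 8 in *Drp1* KO, or 0.498 ± 0.299 and 0.214 ± 0.0319 CPM. The groups overlapped (log2 fold change -1.19, SE 0.570, and -0.62 without WT library 2, which held 22 of the counts), and its exons overlap the antisense gene *Polr2b* (11416 counts). Whether the counting used strand is not stated, so reads from the stretch that both genes share cannot be told apart. *Igfbp3* (chromosome 11, 7156086 to 7164179, minus strand) had 1, 5 and 2 counts in WT and 0, 8 and 11 in *Drp1* KO. *Igfbp5* (chromosome 1, 72897091 to 72914043, minus strand) had 3, 5 and 0 counts in WT and 5, 0 and 2 in *Drp1* KO. *Igfbp6* (chromosome 15, 102052697 to 102057953, plus strand), which prefers IGF2, had 1 count in each WT library and 0, 3 and 0 in *Drp1* KO. It was at or under the floor in every library and was not tested. None of these 4 genes was called, and none had groups that separated. *Igfbp1*, *Igfbp2*, *Igfals* and *Igfbpl1*, the rest of the family on the list, had under 10 counts each and were not tested.

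The promoters of *Igf2r* and *Igfbp4*, the receptor and the binding protein with the largest called differences, are shown as the 250 bases before the RefSeq start, 5′ to 3′ on the gene's strand and placed on GRCm39 by exact match. The *Igf2r* window is chr17:12988594-12988843 (minus strand) and the *Igfbp4* window is chr11:98931820-98932069 (plus strand). Capitals mark ACGTG (the core of the site bound by hypoxia-inducible factors) and GGGCGG (a GC box) on either strand.
Igf2r: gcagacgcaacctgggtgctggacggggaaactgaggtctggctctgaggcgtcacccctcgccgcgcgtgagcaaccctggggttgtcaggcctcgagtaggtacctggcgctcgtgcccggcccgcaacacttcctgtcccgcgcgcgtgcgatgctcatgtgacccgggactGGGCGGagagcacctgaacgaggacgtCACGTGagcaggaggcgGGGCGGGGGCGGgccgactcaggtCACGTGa
Igfbp4: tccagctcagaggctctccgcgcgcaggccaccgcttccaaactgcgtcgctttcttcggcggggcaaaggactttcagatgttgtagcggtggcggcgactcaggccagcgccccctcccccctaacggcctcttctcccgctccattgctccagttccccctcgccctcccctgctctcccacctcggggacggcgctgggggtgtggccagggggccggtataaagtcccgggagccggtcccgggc

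Both windows were rich in G and C, at 69.2% each against a median of 52.4% over 32851 RefSeq windows of the same length. They held 27 and 22 CpG dinucleotides, against a median of 6. The *Igf2r* window held the palindrome CACGTG at both capitalised places, each of which matches ACGTG on both strands, and 3 GC boxes. The *Igfbp4* window held neither motif. Over all 10 genes, ACGTG was in 4 windows (*Igf2r*, *Igfbp7*, *Irs1* and *Irs2*) and in 16.6% of all windows, and GGGCGG was in 5 (*Igf1r*, *Igf2r*, *Igfbp7*, *Irs1* and *Irs2*) and in 32.7% of all windows. An AP-1 site (TGANTCA) was in the *Igf1* window alone and in 6.75% of all windows. A FOXO site (GTAAACA), a C/EBP site (TTGCNNAA) and the interferon-stimulated response element were in 0 of the 10 windows and in 3.17%, 9.56% and 2.98% of all windows. RefSeq starts can lie within the gene as GENCODE annotates it. The windows of *Igf1*, *Igf1r*, *Igfbp3* and *Irs2* lay wholly inside the annotated gene, and that of *Irs1* did so for 178 bases, so their motif matches are not all upstream of it. Of the windows shown, 21 bases of *Igf2r*, with the second CACGTG, and 6 bases of *Igfbp4* lay inside the gene.

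The 2 receptor substrates differed in level. *Irs2* (ENSMUSG00000038894; chromosome 8, 11034681 to 11059499, minus strand) had 28.6, 22.4 and 24.0 CPM in WT libraries and 39.9, 28.5 and 22.0 CPM in *Drp1* KO libraries. The groups overlapped, and as for *Igfbp4* library 1 was the highest in both. Its log2 fold change was 0.27 (SE 0.195), not called, and it ran from 0.002 without *Drp1* KO library 1 to 0.45 without *Drp1* KO library 3. *Irs1* (chromosome 1, 82210822 to 82269338, minus strand) had 3, 1 and 3 counts in WT and 5, 1 and 5 in *Drp1* KO and was not called.

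Between genes, levels were compared on TPM. In WT, *Igf1* was highest at 1016 ± 52.1 TPM, followed by *Igf2r* at 105 ± 14.4, *Igfbp4* at 100.1 ± 16.6, *Irs2* at 4.50 ± 0.561 and *Igf1r* at 4.36 ± 0.284 (SD, n = 3 each). *Igf2r* and *Igfbp4* overlapped, as did *Irs2* and *Igf1r*, and the steps between these pairs did not. In *Drp1* KO the order was the same, with *Igf1* at 609 ± 120.4 TPM, *Igf2r* at 54.7 ± 5.78, *Igfbp4* at 49.5 ± 14.6, *Irs2* at 5.13 ± 1.42 and *Igf1r* at 2.77 ± 0.256. There *Irs2* and *Igf1r* no longer overlapped. *Igfbp7* came next in both groups (0.568 and 0.220 TPM), and *Igfbp3*, *Igfbp6*, *Igfbp5* and *Irs1* followed, with neighbours that overlapped. *Igf1* ranked 136 of the 18506 genes by mean TPM. Its TPM rests on the short transcript models described above. CPM per kilobase gave the same order, but it used the same transcript lengths and is no separate check.

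**Figure D4:**
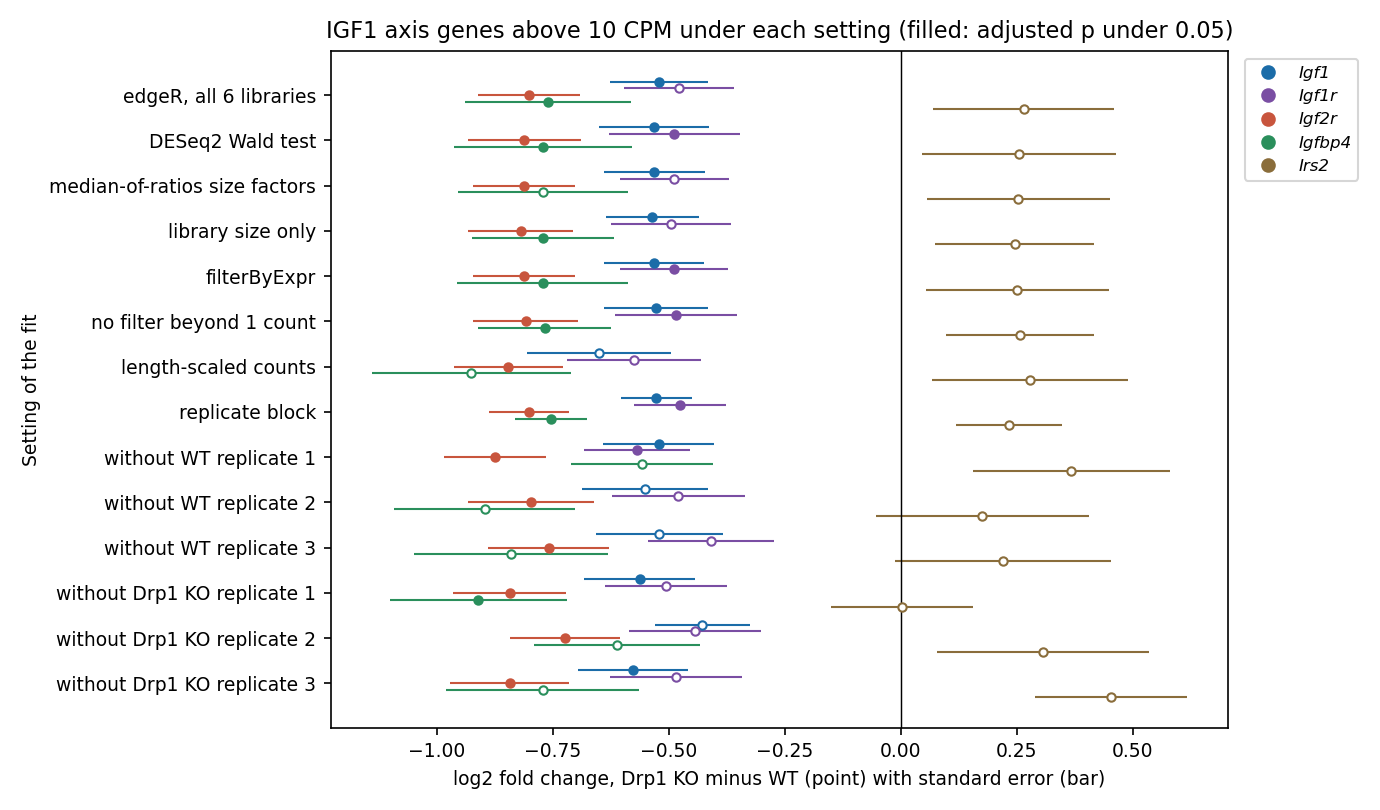
log2 fold change (*Drp1* KO minus WT) with its standard error for the 5 genes above 10 CPM, in the fit of all 6 libraries and in 13 other settings, filled where the adjusted p was under 0.05. *Igf2r* was filled in every row, the other genes lower in *Drp1* KO in some of them, and *Irs2* in none.

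The rest of the pathway was read from a list of 70 further genes, of which 63 had enough counts to be tested. Of these, 1 was called lower and 0 higher, where 3.36% of all genes tested were called. A negative log2 fold change was seen in 34 and a positive one in 29, with a median of -0.03. At an unadjusted p under 0.05, 10 passed, 5 lower and 5 higher, where 16.4% of all genes passed. The call was among the 10 binding protein proteases and their inhibitors. It was *Adam9*, a membrane metalloprotease, with 111, 148 and 135 CPM in WT and 76.7, 72.8 and 72.5 CPM in *Drp1* KO. Its groups were wide apart (131 ± 18.7 against 74.0 ± 2.34 CPM, SD, n = 3 each), with a log2 fold change of -0.83 (SE 0.114, adjusted p = 0.00386, and 2.18e-08 to 0.0310 over the other settings). *Pappa*, which encodes the protease of IGFBP4, had 5 counts in the WT libraries together and 7 in the *Drp1* KO libraries.

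**Figure D5:**
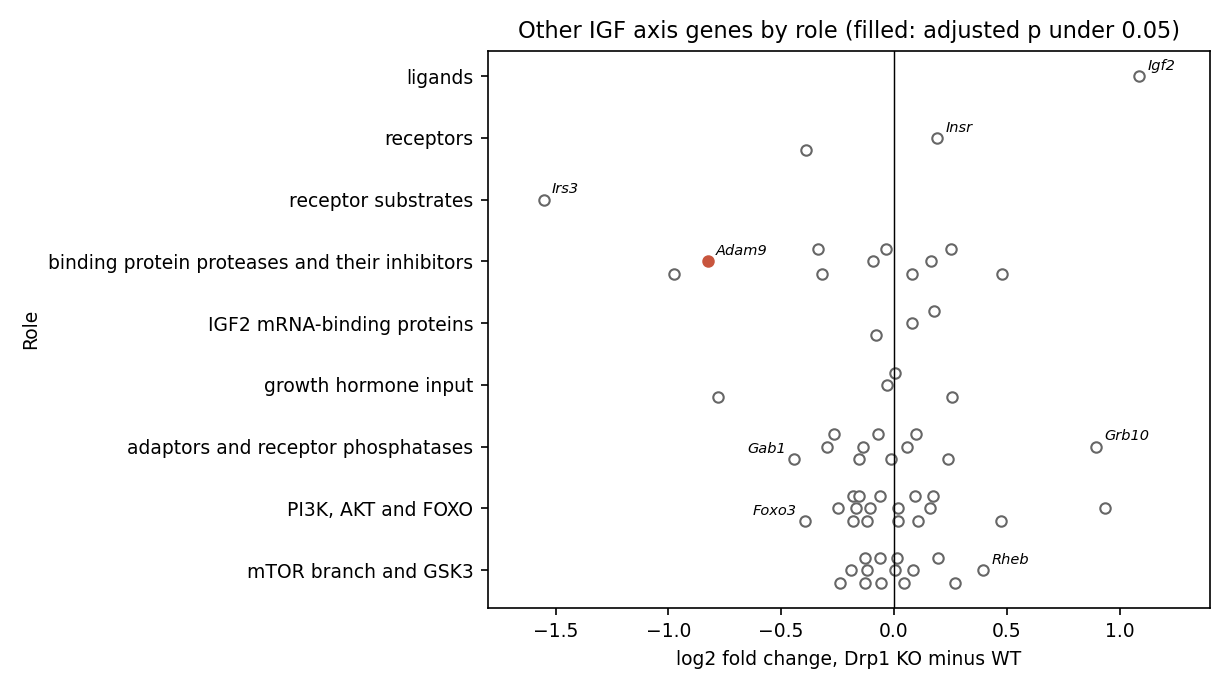
log2 fold change (*Drp1* KO minus WT) of the 63 further axis genes tested, 1 point per gene, in rows by role, with points offset vertically for legibility. *Adam9* is the filled point at -0.83, and the other 62 genes were not called.

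With the replicate block 9 of the 63 were called, where 12% of all genes were. Among them were *Adam9*, *Foxo3*, *Gab1* and *Grb2*, lower, and *Grb10*, *Jak2*, *Rheb* and *Rictor*, higher. Their roles are spread along the pathway. *Foxo3*, a transcription factor that AKT keeps out of the nucleus, had 392 ± 29.6 CPM in WT against 298 ± 25.6 CPM in *Drp1* KO (log2 fold change -0.40, adjusted p = 0.0726, and 0.00494 to 0.240 over the other settings). *Gab1*, a docking adaptor, had 52.4 ± 3.48 and 38.6 ± 5.57 CPM (-0.44, adjusted p = 0.0798). *Grb10*, an adaptor that dampens IGF1R and insulin receptor signals, had 1.33 ± 0.0782 and 2.46 ± 0.517 CPM (0.90, adjusted p = 0.0968). *Rheb*, a GTPase that activates mTOR, had 57.7 ± 4.57 and 76.0 ± 9.57 CPM (0.40, adjusted p = 0.103). *Jak2*, the kinase bound to the growth hormone receptor, had 67.3 ± 4.13 and 80.6 ± 0.461 CPM (0.26, adjusted p = 0.172, and 0.0460 to 0.432 over the other settings). *Grb2*, the adaptor toward MAP kinase signalling, had 487 ± 44.9 and 397 ± 42.0 CPM (-0.30, adjusted p = 0.214, and 0.0181 to 0.455 over the other settings). *Rictor*, a subunit of the mTOR complex that phosphorylates AKT, had 63.8 ± 0.674 and 77.0 ± 4.47 CPM (0.27, adjusted p = 0.147).

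Of the list genes called in no setting, *Gsk3b*, *Tsc1*, *Stat5b*, *Ptpn1*, *Igf2bp2* and *Igf2bp3* had smaller differences than the genes just named. That did not hold for every such gene. *Htra1*, listed with the binding protein proteases, had a log2 fold change of 0.48, with groups that overlapped. *Gsk3b*, a kinase that AKT inhibits, had 280.2 ± 19.1 CPM in WT and 282 ± 23.8 CPM in the knockout (log2 fold change 0.01, adjusted p = 0.990), and *Tsc1*, which restrains *Rheb*, had 75.9 ± 10.1 and 78.3 ± 7.52 CPM (0.04, adjusted p = 0.921). *Stat5b*, a transcription factor downstream of growth hormone, had 113 ± 24.7 and 113 ± 23.3 CPM, and *Ptpn1*, a phosphatase of the insulin receptor, had 232 ± 31.8 and 221 ± 46.0 CPM. The IGF2 mRNA-binding proteins *Igf2bp2* (35.4 ± 3.003 and 37.4 ± 4.55 CPM) and *Igf2bp3* (7.35 ± 1.21 and 8.34 ± 0.350 CPM) overlapped between groups. The sign of the log2 fold change turned with the setting for *Gsk3b*, *Tsc1*, *Stat5b*, *Ptpn1* and *Igf2bp2*. Summed within each group, WT first, the ligand *Igf2* had 7 and 17 counts, *Irs3* 23 and 8, and the insulin receptor-related receptor *Insrr* 44 and 36. None of these 3 was called.

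The genes whose log2 CPM followed *Igf1* most closely over the 6 libraries, among 7953 genes with at least 10 CPM, were *Kank2* (Pearson r = 0.997), *Creld1* (0.997), *Col18a1* (0.993), *Tbxas1* (0.991) and *Tln1* (0.990). The 6 libraries share the genotype difference, so these values describe the libraries and are no test. *Tbxas1*, which encodes thromboxane A synthase, had 119 ± 6.02 CPM in WT against 87.3 ± 8.70 CPM in *Drp1* KO. *Tln1*, the cytoskeletal linker talin, had 764 ± 11.9 and 617 ± 40.9 CPM. *Col18a1*, the collagen that yields endostatin, had 60.7 ± 0.914 and 45.7 ± 4.997 CPM.

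Markers of other cells were read beside the IGF genes. The summed level of 14 fibroblast and stromal markers was 16.0 to 23.8 CPM in WT against 15.2 to 18.4 CPM in *Drp1* KO, of which *Thy1* made up 15.2 and 12.9 CPM and *Col1a1* 0.822 and 0.777 CPM. None of them was called or at 0 in all libraries, and their part in the *Igf1* and *Igfbp4* differences was not tested. The 11 neutrophil markers summed to 90.4 to 98.5 CPM in WT against 119 to 221 CPM in *Drp1* KO, most of it from *Mmp8*, with the defining *Ly6g* at 0 in every library. This sum was higher in each *Drp1* KO library, where *Igf1*, *Igf2r*, *Igfbp4* and *Igf1r* were lower, and its part in their difference was not tested. The dendritic markers summed to 43.8 to 63.1 CPM in WT against 31.1 to 50.7 CPM in *Drp1* KO, with *Cd209a* at 0. The endothelial markers summed to 71.1 to 86.3 and 69.7 to 86.6 CPM, with *Cldn5* at 0 and *Kdr* called higher (8.92 to 12.2 CPM in WT, 17.4 to 23.1 CPM in *Drp1* KO), and the lymphocyte markers to 20.5 to 36.2 and 26.5 to 58.8 CPM. Of the 12 macrophage markers, *Csf1r* (953 and 666 CPM) and *Mertk* (249 and 173 CPM) were called lower and *Fcgr1* (65.8 and 167 CPM) higher. The part of these macrophage markers in the difference of the IGF genes was not tested.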

How the data were processed

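RNA was measured by paired-end poly(A) RNA-seq in 3 WT and 3 *Drp1* KO libraries. Reads were quantified by the authors with kallisto on Ensembl cDNA of GRCm39 and tested genes with DESeq2. The submitters' processing notes name kallisto 0.46.1 and DESeq2 1.44.0, and the study's methods name another DESeq2 version. The deposited tables give an estimated count and a TPM value per transcript. Estimated counts are neither whole nor scaled between libraries, and TPM is scaled to transcript length and to a fixed sum per library. The labels and the methods differ on the oxygen level (2.1% and 2%) and on the L929 medium (10% and 20%).

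Of 116873 transcripts, 99.39% matched GENCODE identifiers on GRCm39, and the rest, with 0.542% to 0.575% of a library's counts, were left out. Counts were added per gene and rounded. Genes with at least 10 counts in total were tested with edgeR 4.0.16 in R 4.3.3 (TMM, quasi-likelihood test, no covariate, Benjamini-Hochberg over all 18506 genes). Length-scaled counts used the deposited TPM and lengths. Depth was 23389488 to 32231206 estimated counts, and a floor of 3 counts covers counting error only. Within each group no library was a copy of another by a chi-square test of counts. Other settings were DESeq2 1.42.0, other size factors and filters, length-scaled counts, a replicate block and leaving out each library. The fit was tested on simulated counts first.

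The groups share replicate numbers 1 to 3. Deviations from the group means correlated at 0.539, 0.218 and 0.352 between same-numbered libraries over 12248 genes, each over 0.1. Unequal numbers gave -0.481 to 0.339, the highest for WT library 2 with *Drp1* KO library 3, so the pairing is a reading of the data that the study does not state. The block was kept to an alternative setting.

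The 10 genes, the list of 70 further genes and the marker lists were chosen with earlier results of these data known, so calls on the 10 genes are a description. Named besides these were the targeted gene, each called gene of the list or up to 2 of highest CPM in a role without a call, the 5 genes most like *Igf1* and transcripts with at least 10% of a gene's counts. *Gab1*, *Grb10*, *Rheb* and *Rictor*, *Htra1*, *Pappa*, *Kdr*, Igf1-203 and Igf1-207 were named after their values were seen. Promoter windows came from RefSeq (GRCm38.p6), with 10 of 10 genes matched. Some genes that the rule names are not reported here.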

Additional observations from a re-analysis of the deposited data

How the results depend on the processing

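The log2 fold changes of *Igf1*, *Igf2r*, *Igfbp4* and *Igf1r* kept their negative sign in all 13 other settings, and *Irs2* its positive sign. Of the 10 genes, 3 were called in the fit of all libraries, 4 with DESeq2, filterByExpr, no filter beyond 1 count, the replicate block and the study's criteria, and 2 with median-of-ratios size factors. With length-scaled counts only 1, *Igf2r*, was called, and with a library left out 1 to 3 were, 1 of them (*Igf2r*) without *Drp1* KO library 2, WT library 2 or WT library 3. The cause was not tested. Of the 63 further genes 1 was called in the fit of all libraries, 4 with DESeq2, 3 with library size only, 4 with no filter, 9 with the replicate block, 6 by the study's criteria and 1 to 4 with a library left out (4 without *Drp1* KO library 1). Calls over all genes numbered 621 (424 higher, 197 lower), and 1155 with DESeq2 (663 higher, 492 lower), 1065 with no filter, 603 with median-of-ratios, 731 with library size only, 676 of 14484 genes with filterByExpr, 453 with length-scaled counts, 2212 with the replicate block, 2345 by the study's criteria on the edgeR test and 181 to 904 with a library left out. Among the named genes, signs turned for those near 0 or near the floor. *Stat5b* (0.004) had -0.00837 with DESeq2, -0.00854 with median-of-ratios, -0.00898 with library size only, -0.00952 with filterByExpr, -0.00490 with no filter and -0.182 to 0.195 with a library left out. *Gsk3b* (0.007) had -0.00419, -0.00415, -0.00686, -0.00520 and -0.000800 in the same order, -0.0672 with length-scaled counts and -0.0741 to 0.0589 with a library left out. *Tsc1* (0.04) had -0.00662 with length-scaled counts and -0.0436 to 0.156 with a library left out. With a library left out, *Ptpn1* ran from -0.266 to 0.0447, *Igf2bp2* from -9.25e-05 to 0.179 *Igfbp7* (one sign throughout) from -1.54 to -0.62 and *Igfbp5* from -1.62 to 0.48. The replicate block changed no other call. At this depth no difference was detectable for *Igfbp3*, *Igfbp5*, *Igfbp6*, *Igfbp7* and *Irs1*. Shares of transcripts moved between counts and TPM, as given with them.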
